A study of Mus musculus with 8 samples.

Results

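The 10 genes described here encode the core of classical non-homologous end joining, together with the kinase *Atm*. They were chosen by name, as 10 of the 27179 genes in the count table, and all 10 passed the filter on low counts in every comparison. RNA sequencing had been run on bone marrow B-lineage cells sorted from mice of 7 to 10 weeks on a C57BL/6J background, in 4 groups of 2 libraries. Mice homozygous for a floxed *Erg* allele (Erg fl/fl), which carried no Cre, gave pre-proB, proB and preB cells. Mice that also carried Rag1Cre, in which the allele is deleted from the common lymphoid progenitor onward (Rag1Cre T/+;Erg Δ/Δ), gave the Erg-deleted pre-proB cells. Cre was thus present in only 1 of the 2 genotypes, and its presence cannot be told apart from loss of *Erg*, which encodes an ETS-family transcription factor.

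Developing B cells cut their immunoglobulin loci with the Rag1 and Rag2 recombinase and rejoin the ends by classical end joining. The Ku heterodimer, encoded by *Xrcc6* and *Xrcc5*, threads onto each broken end and recruits the kinase DNA-PKcs (*Prkdc*), which activates the nuclease Artemis (*Dclre1c*) to open the hairpins that the recombinase leaves. The ligase *Lig4*, held by its partner *Xrcc4* and the scaffold *Nhej1*, seals the join after the polymerases *Poll* and *Polm* have filled it, while *Atm* stabilises the ends and signals the break. Heavy chain genes are assembled in pre-proB and proB cells and light chain genes in preB cells.

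Libraries held 15565381 to 18457632 counts. In these Erg-deleted cells *Erg* stood at 2.50 and 2.58 CPM (counts scaled to a common library size), while the pre-proB controls had 69.1 and 25.3 CPM. The sort took cells of every stage without surface CD11c or NK1.1. Pre-proB cells were taken as CD43+ CD24-, proB cells as CD43+ CD24+ and preB cells as CD43- CD24+. *Cd24a* RNA stood at 66.4 to 169 CPM in the 4 pre-proB libraries and at 1784 to 2081 CPM in the others. *Itgax*, which encodes CD11c, nevertheless stood at 326 to 452 CPM in the pre-proB libraries and at 1.35 to 5.14 CPM in the proB and preB libraries. The Erg fl/fl pre-proB libraries differed from each other: the summed level of 10 early B-like genes was 1714 CPM in replicate 1 and 851 CPM in replicate 2. Each library held RNA of both *Xist* (450 to 1114 CPM) and the Y-linked *Ddx3y* (84.6 to 135 CPM), which no single male or female mouse gives together. Results that rest on the Erg fl/fl pre-proB libraries are therefore given with and without each of them where a call changed.

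Promoter sequences are shown for the 4 genes whose RNA rose most from pre-proB to preB among those with a RefSeq promoter. They were selected on those values and serve to place the genes, not to test them. Each runs 5′ to 3′ in the direction of the gene, from 250 bases before to 50 bases after the annotated start, on build GRCm38.p6. Capitals mark an ETS-type core (GGAAGT) or an E-box (CAGNTG), on either strand. *Polm* lies on chr11:5837967-5838266, minus strand, *Lig4* on chr8:9977631-9977930, minus strand, *Xrcc5* on chr1:72307171-72307470, plus strand, and *Xrcc6* on chr15:82016119-82016418, plus strand.
Polm: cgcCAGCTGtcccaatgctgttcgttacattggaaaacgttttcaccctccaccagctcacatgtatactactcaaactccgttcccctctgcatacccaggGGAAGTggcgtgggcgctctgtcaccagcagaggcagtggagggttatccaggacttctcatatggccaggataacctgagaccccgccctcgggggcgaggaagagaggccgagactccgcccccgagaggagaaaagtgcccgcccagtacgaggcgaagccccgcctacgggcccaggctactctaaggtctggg
Lig4: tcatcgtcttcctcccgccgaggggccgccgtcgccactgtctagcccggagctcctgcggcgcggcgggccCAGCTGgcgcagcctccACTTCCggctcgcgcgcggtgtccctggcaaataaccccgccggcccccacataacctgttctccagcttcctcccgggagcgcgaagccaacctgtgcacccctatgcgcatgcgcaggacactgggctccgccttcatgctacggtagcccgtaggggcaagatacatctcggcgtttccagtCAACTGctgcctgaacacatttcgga
Xrcc5: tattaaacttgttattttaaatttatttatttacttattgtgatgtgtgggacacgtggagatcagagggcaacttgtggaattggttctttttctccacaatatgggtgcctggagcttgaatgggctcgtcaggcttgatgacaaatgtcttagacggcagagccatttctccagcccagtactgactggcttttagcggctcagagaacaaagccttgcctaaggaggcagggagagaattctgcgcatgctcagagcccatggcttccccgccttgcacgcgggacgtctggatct
Xrcc6: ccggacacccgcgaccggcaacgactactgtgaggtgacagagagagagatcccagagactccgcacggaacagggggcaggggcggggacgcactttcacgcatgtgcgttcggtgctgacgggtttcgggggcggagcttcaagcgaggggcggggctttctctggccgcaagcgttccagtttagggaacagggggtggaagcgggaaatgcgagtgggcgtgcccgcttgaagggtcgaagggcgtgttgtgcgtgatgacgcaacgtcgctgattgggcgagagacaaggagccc

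Of the 10 genes, 8 had a promoter in the RefSeq table, and *Lig4* had 2, which makes 9 promoters. The ETS-type core was found in 3 of the 9, those of *Dclre1c* and *Polm* and 1 of the 2 of *Lig4*, and in 23.8% of all 32851 promoters in the table. An E-box was found in 5 of the 9, those of *Dclre1c*, *Polm* and *Atm* and both of *Lig4*, and in 51.4% of all promoters. An Ebf1-type motif, TCCC and GGGA with 2 bases between them, was found in 0 of the 9 and in 0.904% of all promoters. In the sequences above, the *Polm* promoter holds an ETS-type core at position -148 relative to the start and an E-box at -247. The *Lig4* promoter holds an ETS-type core at position -161, on the opposite strand, and 2 E-boxes, 1 of them within the transcript. The other *Lig4* promoter, chr8:9976262-9976561, holds no ETS-type core and 1 E-box. The *Xrcc5* and *Xrcc6* promoters hold neither. These matches are of letters only. The other 6 genes lie, in the GENCODE M21 annotation of GRCm38, at chr16:15637444-15842239 (*Prkdc*), chr2:3424061-3474211 (*Dclre1c*), chr13:89848914-90089608 (*Xrcc4*), chr1:74967346-75125226 (*Nhej1*), chr19:45552275-45560564 (*Poll*) and chr9:53437122-53536828 (*Atm*), and counts were taken over exons.

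During normal differentiation most of the 10 genes moved, but not as a unit. From pre-proB to proB cells, 6 of the 10 rose (*Xrcc5*, *Xrcc6*, *Lig4*, *Nhej1*, *Poll* and *Polm*) and 3 fell (*Prkdc*, *Dclre1c* and *Atm*), with *Xrcc4* not passing the test. Here a gene is said to have risen or fallen where the adjusted p of edgeR's quasi-likelihood test, over all genes tested, was below 0.05. Such calls were common at this step: 73.0% of the 13650 genes tested were called, 36.2% as higher and 36.8% as lower. From proB to preB cells, 5 rose (*Xrcc6*, *Dclre1c*, *Lig4*, *Xrcc4* and *Polm*) and 3 fell (*Xrcc5*, *Prkdc* and *Poll*), against 58.9% of all genes called, 29.0% higher and 29.9% lower. From pre-proB to preB cells, 6 rose and 3 fell, the same genes as at the first step in each direction, against 70.7% of all genes called, 36.5% higher and 34.1% lower. The last of these contrasts shares the pre-proB libraries with the first and the preB libraries with the second. The median log2 fold change of the 10 genes was 0.88, 0.44 and 0.95 in the 3 comparisons in turn, and that of all genes tested was 0.00, -0.00 and 0.04. As the samples were bulk RNA, fewer cells of a type and less RNA per cell cannot be told apart.

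**Figure D1:**
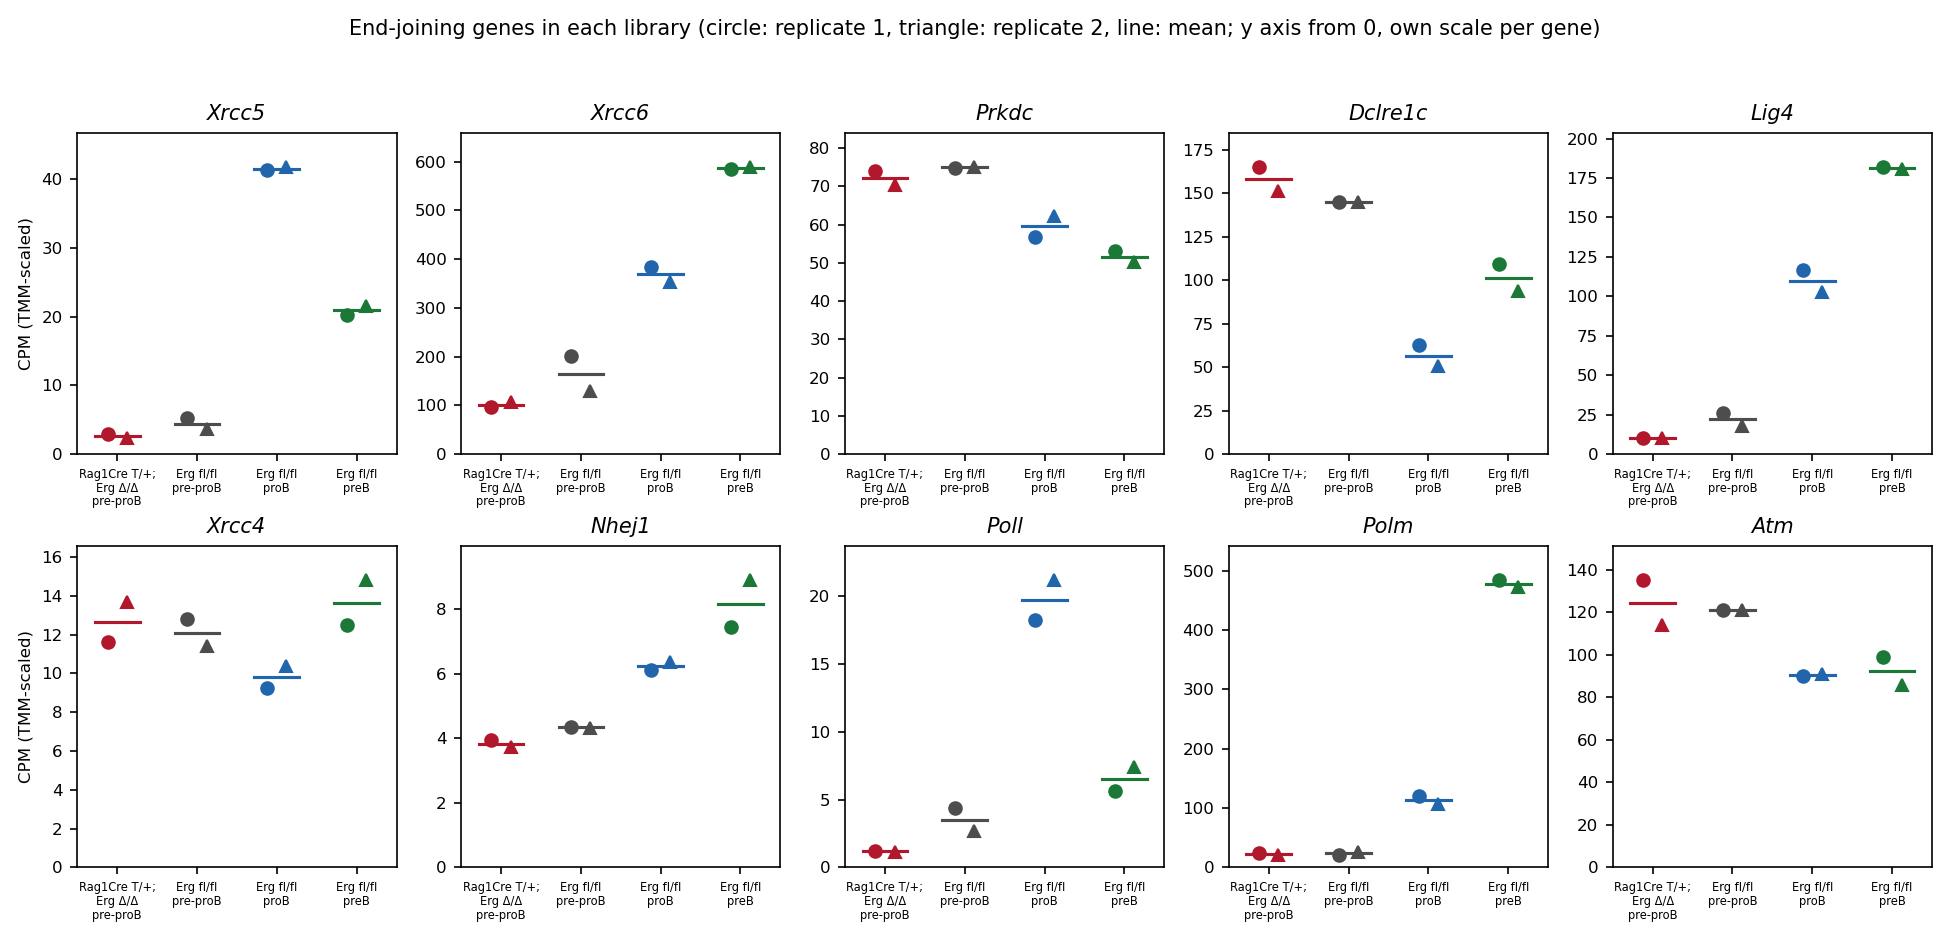
Level of each of the 10 end-joining genes in CPM (linear axis from 0, its own scale per gene) in the 8 libraries, with the mean of each group as a line. *Polm*, *Lig4* and *Xrcc6* were highest in preB cells, *Xrcc5* and *Poll* in proB cells, and *Prkdc*, *Dclre1c* and *Atm* in the pre-proB groups.

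**Figure D2:**
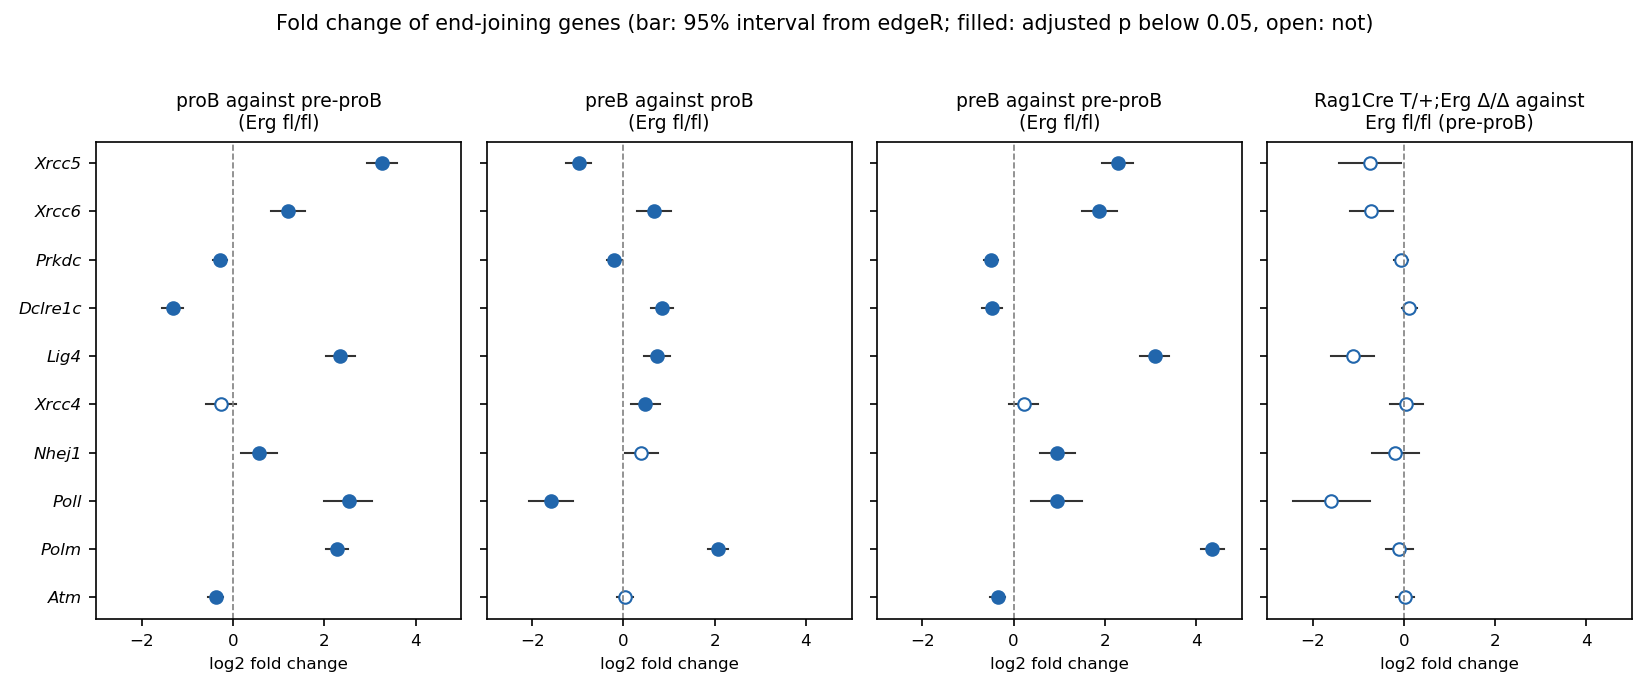
Log2 fold change of each gene in 4 comparisons, with the 95% interval from edgeR as a bar and filled points where the adjusted p was below 0.05. The 3 panels of Erg fl/fl stages hold 9, 8 and 9 filled points, and the panel comparing genotypes holds 0.

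The 2 Ku subunits followed different courses. In the Erg fl/fl mice *Xrcc6*, which encodes Ku70, stood at 201 and 129 CPM (pre-proB), 384 and 354 CPM (proB) and 585 and 589 CPM (preB). Each stage lay above the one before without overlap. It rose by 1.20 ± 0.168 (log2 ± SE, adjusted p = 0.000206, edgeR) and then by 0.68 ± 0.164 (adjusted p = 0.00740, edgeR). *Xrcc5*, which encodes Ku80, stood at 5.26 and 3.65 CPM (pre-proB), 41.3 and 41.8 CPM (proB) and 20.3 and 21.6 CPM (preB). It was highest in proB cells, and no stages overlapped. It rose 9.57-fold (log2 3.26 ± 0.143, adjusted p = 1.65e-07, edgeR), the largest rise of the 10 genes at this step, and then fell by 0.98 ± 0.117 (adjusted p = 0.000179, edgeR). The second step of *Xrcc6* did not pass without proB replicate 2 (0.61, adjusted p = 0.0660, edgeR) or without preB replicate 2 (0.63, adjusted p = 0.0692, edgeR). The exons of *Xrcc6* overlap those of *Desi1* on the opposite strand over 344 bp, 7.69% of its exonic bases, and the sources used here do not say whether the counting used strand. *Desi1* stood at 70.9 and 65.6 CPM at the pre-proB stage, 183 and 174 at the proB stage and 250 and 227 at the preB stage, and its part in the *Xrcc6* values was not tested.

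The end-processing factors and *Atm* were highest before the proB stage. *Dclre1c* stood at 145 and 145 CPM (pre-proB), 62.5 and 50.5 CPM (proB) and 109 and 93.9 CPM (preB). The proB libraries were the lowest, and the 3 stages did not overlap. It fell by 1.33 ± 0.103 (adjusted p = 4.69e-06, edgeR) and then rose by 0.85 ± 0.103 (adjusted p = 0.000189, edgeR), ending 0.48 ± 0.0993 below the pre-proB level. *Dclre1c* shares 357 bp of exons with *Suv39h2* on the opposite strand, which stood at most at 26.4 CPM in any library. *Prkdc* moved less, from 74.9 and 75.1 CPM to 56.9 and 62.4 and then 53.0 and 50.2. Its fall was 0.30 ± 0.0684 at the first step (adjusted p = 0.00411, edgeR) and 0.20 ± 0.0695 at the second (adjusted p = 0.0333, edgeR), the smallest called change of the set. The first did not pass without proB replicate 1 (adjusted p = 0.0510, edgeR). The second did not pass without proB replicate 2, preB replicate 1 or preB replicate 2 (adjusted p = 0.178, 0.0589 and 0.0789, edgeR), or with DESeq2 (adjusted p = 0.0565). *Atm* stood at 121 and 121 CPM (pre-proB), 90.0 and 91.0 CPM (proB) and 98.8 and 85.6 CPM (preB). It fell by 0.38 ± 0.0719 (adjusted p = 0.00123, edgeR) to a level that the preB libraries straddled, and the second step gave 0.03 ± 0.0724 (95% interval -0.13 to 0.20).

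Within the ligation complex, the ligase rose at both steps and its partner passed the test only at the second. *Lig4* stood at 26.3 and 17.9 CPM (pre-proB), 117 and 103 CPM (proB) and 182 and 181 CPM (preB). The stages were widely separated. It rose by 2.35 ± 0.142 (adjusted p = 1.01e-06, edgeR) and then by 0.73 ± 0.123 (adjusted p = 0.00111, edgeR), an 8.49-fold rise in all. *Xrcc4*, which stabilises the ligase, stood at 12.8 and 11.4 CPM (pre-proB), 9.23 and 10.4 CPM (proB) and 12.5 and 14.8 CPM (preB). The pre-proB and preB libraries overlapped, and the change between them was 0.22 ± 0.140 (95% interval -0.10 to 0.54). The step from proB to preB was a rise of 0.48 ± 0.141 (adjusted p = 0.0172, edgeR), which did not pass without proB replicate 1 (0.39), without preB replicate 2 (0.31) or with DESeq2 (0.46, adjusted p = 0.0536). *Xrcc4* shares 112 bp of exons with the more abundant *Tmem167* on the opposite strand. *Tmem167* stood at 108 and 110 CPM (pre-proB), 118 and 111 CPM (proB) and 126 and 120 CPM (preB). Its part in the *Xrcc4* values was not tested. *Nhej1*, which encodes the scaffold XLF, went from 4.36 and 4.32 CPM to 6.12 and 6.38 and then to 7.44 and 8.90. It rose by 0.56 ± 0.172 at the first step (adjusted p = 0.0166, edgeR) and by 0.95 ± 0.170 over both (adjusted p = 0.000964, edgeR), while the second step alone gave 0.39 ± 0.161 (adjusted p = 0.0637, edgeR). The call at the first step was lost without either pre-proB library (adjusted p = 0.0611 and 0.0626, edgeR) and without proB replicate 2 (adjusted p = 0.0852, edgeR), and with DESeq2 (adjusted p = 0.0695).

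The 2 family X polymerases parted at the preB stage. *Polm*, whose product can join ends with little pairing, stood at 21.6 and 26.6 CPM (pre-proB), 120 and 107 CPM (proB) and 484 and 472 CPM (preB). No stages overlapped. It rose by 2.27 ± 0.105 (adjusted p = 2.11e-07, edgeR) and again by 2.08 ± 0.0939 (adjusted p = 2.85e-06, edgeR), a 20.4-fold rise in all and the widest of the 10 genes. *Poll*, which fills gaps on paired ends, stood at 4.36 and 2.67 CPM (pre-proB), 18.3 and 21.2 CPM (proB) and 5.64 and 7.44 CPM (preB). The proB libraries stood apart above both other stages. It rose by 2.53 ± 0.229 (adjusted p = 1.30e-05, edgeR) and then fell by 1.59 ± 0.210 (adjusted p = 0.000305, edgeR), leaving preB cells 0.94 ± 0.245 above pre-proB cells (adjusted p = 0.00786, edgeR). This net difference did not pass without pre-proB replicate 2 (0.59, adjusted p = 0.0528, edgeR) or without preB replicate 2 (0.70, adjusted p = 0.0883, edgeR).

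Compared per length, as CPM per kb of annotated exon (FPKM), the set was uneven. Levels are the mean ± SD of 2 libraries. In preB cells *Xrcc6* (131 ± 0.625 FPKM) and *Polm* (131 ± 2.32) led and did not differ beyond their spread, followed by *Lig4* (34.9 ± 0.220), *Dclre1c* (10.9 ± 1.11) and *Atm* (8.92 ± 0.902), the last 2 of which were close. In pre-proB cells of the same genotype *Xrcc6* led (36.8 ± 11.4), followed by *Dclre1c* (15.6 ± 0.0613) and *Atm* (11.7 ± 0.0289), while *Polm* (6.59 ± 0.978) and *Prkdc* (5.69 ± 0.0126) lay together. *Xrcc5* and *Poll* were the lowest there, at 1.74 ± 0.447 and 1.51 ± 0.514 FPKM, and overlapped. The length used matters to such orders: with the longest coding length, *Dclre1c* in pre-proB cells came to 68.5 FPKM and *Xrcc6* to 90.3 FPKM. With the longest transcript, preB cells had 178 ± 0.849 FPKM of *Xrcc6* and 163 ± 2.90 of *Polm*. *Dclre1c* then stood at 14.3 ± 1.46 and *Atm* at 9.39 ± 0.949, so neither closeness in preB cells held with that length. The annotated exons of *Nhej1* cover only part of its RefSeq gene, so its per-length level is uncertain.

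The ratios of partners within a library brought out these differences. *Xrcc6* over *Xrcc5*, as FPKM, was 21.8 and 20.1 at the pre-proB stage, 5.30 and 4.84 at the proB stage and 16.5 and 15.5 at the preB stage, so the 2 Ku transcripts were nearest in proB cells. *Lig4* over *Xrcc4* was 1.67 and 1.27, then 10.3 and 8.05, then 11.8 and 9.92, with the proB and preB ranges overlapping. *Polm* over *Poll* was 3.14 and 6.32, then 4.17 and 3.22, then 54.5 and 40.3, so that it changed only between proB and preB beyond the spread of the libraries. With 2 libraries a group the smallest exact 2-sided permutation p is 0.33, so these ratios are given without a test.

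**Figure D3:**
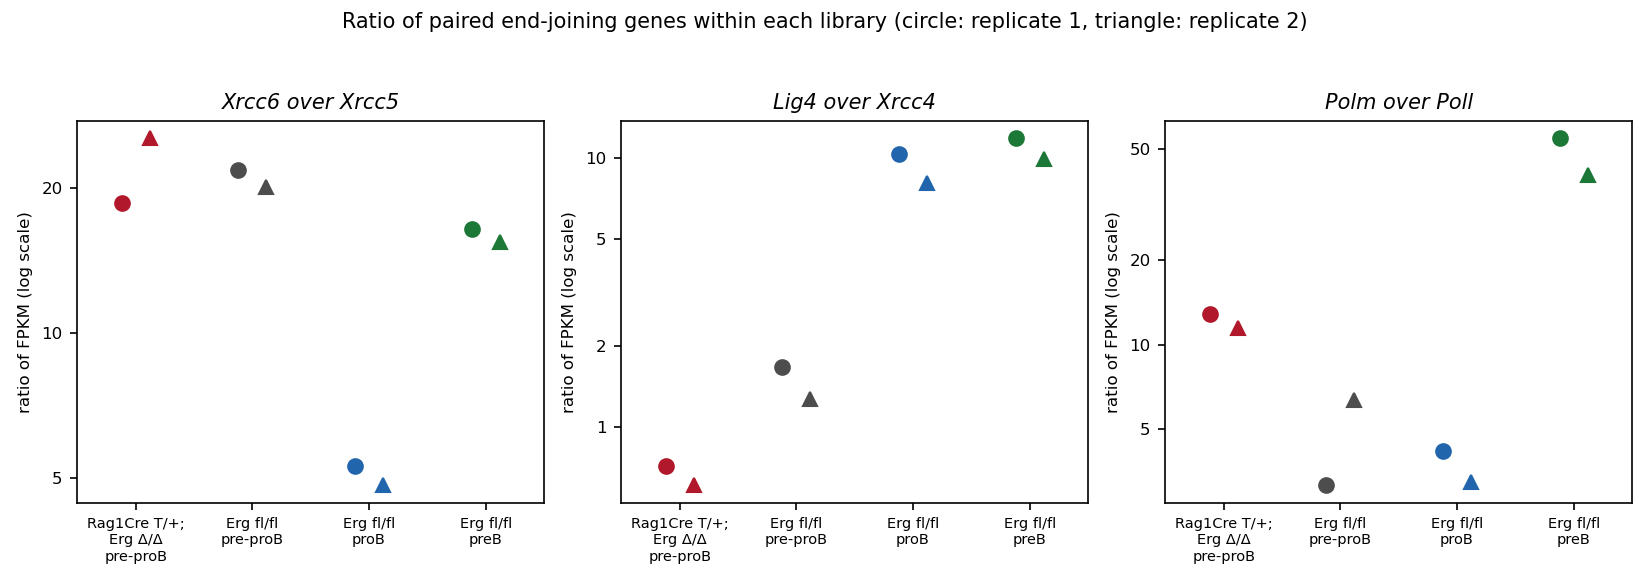
Ratio of FPKM of 3 pairs of end-joining genes in each of the 8 libraries (log axis). *Xrcc6* over *Xrcc5* dips to about 5.30 and 4.84 in proB cells, *Polm* over *Poll* reaches 54.5 and 40.3 in preB cells, and *Lig4* over *Xrcc4* is lowest, at 0.714 and 0.607, in the Erg-deleted (Rag1Cre T/+;Erg Δ/Δ) cells.

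The second question was whether the genes differ in pre-proB cells that lack *Erg*. By edgeR 0 of the 10 passed the test, with 4 at an unadjusted p below 0.05, against 1.16% of 13005 genes called by edgeR (0.215% higher and 0.946% lower, or 151 genes, with 1624 at an unadjusted p below 0.05). DESeq2 called 1 of the 10, *Lig4*, and limma-voom called 0. The study names *Xrcc6* and *Lig4* among the genes deregulated in its Erg-deleted pre-proB cells. Neither passed here by edgeR, and which libraries shared the study's fit is not stated. The 4 genes with the lowest p were *Lig4*, *Poll*, *Xrcc6* and *Xrcc5*, and all 4 had lower values in the Erg-deleted cells. The median log2 fold change of the 10 was -0.15, and that of all genes tested was 0.01.

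*Lig4* stood at 10.2 and 10.3 CPM in the Erg-deleted cells against 26.3 and 17.9 in their controls, a mean of 46.2% of the control level. The groups did not overlap, and the controls were the more scattered pair. For groups of 2 libraries, such separation reaches an exact 2-sided permutation p of only 0.33. The share of all genes that separate in this way, here or between the stages above, was not counted. The log2 fold change was -1.12 ± 0.201 (95% interval -1.60 to -0.65, adjusted p = 0.0626, edgeR). With 1 control library left out, the lone control is assumed to vary like the other group. Without Erg fl/fl replicate 2 it was -1.40 (adjusted p = 0.000572, edgeR), and without replicate 1 it was -0.81 (adjusted p = 0.0885, edgeR).

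*Poll* stood at 1.19 and 1.16 CPM, or 37 counts over both libraries, against 4.36 and 2.67 CPM, a mean of 33.2% of the control level. Here too the groups did not overlap, with the same limit on what such separation shows, and the control libraries were apart. The log2 fold change was -1.59 ± 0.352 (95% interval -2.43 to -0.75, adjusted p = 0.104, edgeR), and -1.92 (adjusted p = 0.0161, edgeR) without Erg fl/fl replicate 2 but -1.18 (adjusted p = 0.446, edgeR) without replicate 1. *Xrcc6* stood at 96.0 and 106 CPM against 201 and 129, and *Xrcc5* at 2.94 and 2.39 against 5.26 and 3.65. Neither overlapped its controls, though control replicate 2 came close for both. *Xrcc5* held only 84 counts over both Erg-deleted libraries. The fold changes were -0.72 ± 0.199 for *Xrcc6* (adjusted p = 0.188, edgeR) and -0.75 ± 0.285 for *Xrcc5* (adjusted p = 0.350, edgeR). *Xrcc6* moved to -1.02 (adjusted p = 0.000371, edgeR) without Erg fl/fl replicate 2 and to -0.35 (adjusted p = 0.322, edgeR) without replicate 1, and *Xrcc5* to -1.01 and -0.45, past the threshold in neither case.

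*Polm* lay close to its controls. It stood at 24.1 and 21.0 CPM in Erg-deleted cells against 21.6 and 26.6 in the controls, and the groups overlapped. The log2 fold change was -0.10 ± 0.125, with a 95% interval of -0.40 to 0.19. The remaining 5 genes, *Prkdc*, *Dclre1c*, *Xrcc4*, *Nhej1* and *Atm*, lay at 88.5% to 109% of the control mean, with log2 fold changes of -0.19 to 0.11. Among these, the widest interval was that of *Nhej1*, from -0.69 to 0.32, at 121 counts over the 2 Erg-deleted libraries. Within the Erg-deleted cells, *Lig4* over *Xrcc4* was 0.714 and 0.607 and *Polm* over *Poll* was 12.9 and 11.5, both outside the Erg fl/fl pre-proB values given above. *Xrcc6* over *Xrcc5* was 18.7 and 25.4, which spanned them.

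**Figure D4:**
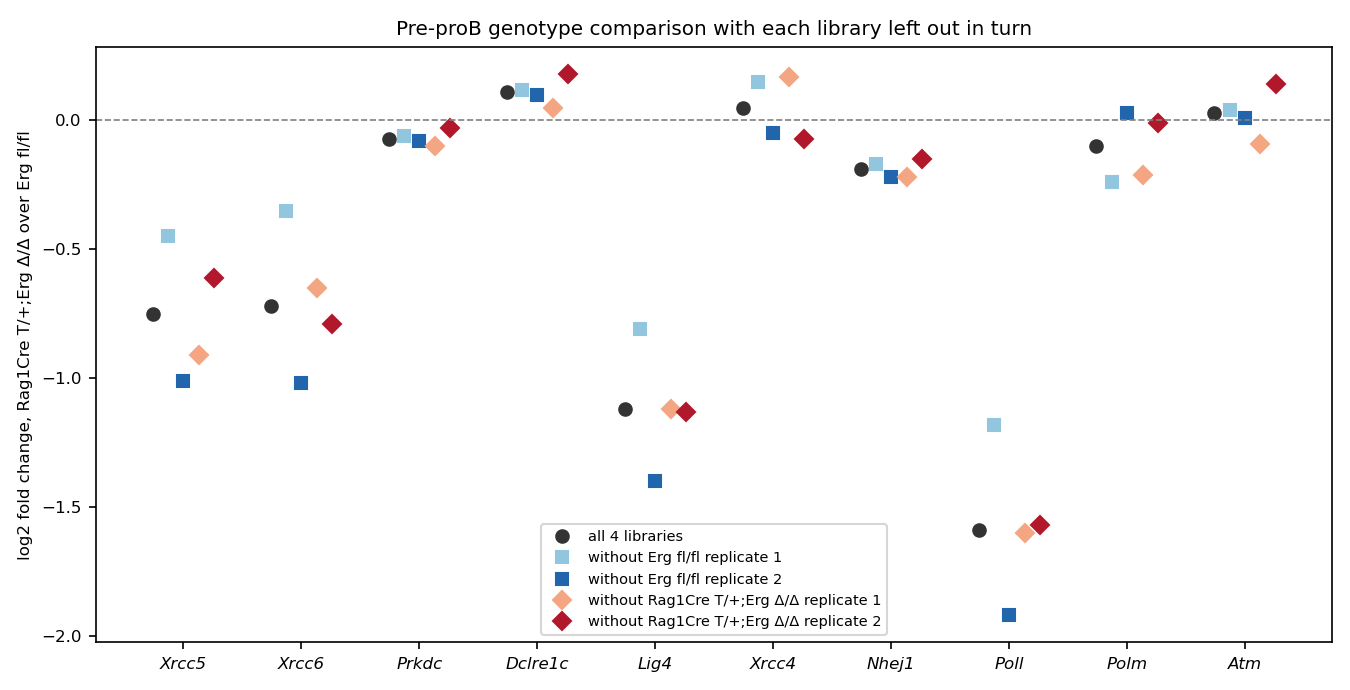
Log2 fold change of each gene between the genotypes (Rag1Cre T/+;Erg Δ/Δ over Erg fl/fl, both pre-proB), with all 4 libraries and with each left out in turn. *Lig4*, *Poll*, *Xrcc6* and *Xrcc5* stay below 0 in every fit and are most negative without Erg fl/fl replicate 2 (-1.40, -1.92, -1.02 and -1.01), while *Polm* stays between -0.24 and 0.03.

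Among the lists of cell type markers, the early B-like and NK-like genes moved most with the genotype, where 1.16% of all genes were called. Of 10 early B-like genes, 8 fell and 0 rose, with a summed level of 397 CPM in each Erg-deleted library against 1714 and 851 CPM. The control library with the higher sum was also the one with more *Lig4*, *Poll*, *Xrcc6* and *Xrcc5* RNA, by 1.47, 1.63, 1.56 and 1.44 times, and not more *Polm*, at 0.810 times. Of 8 NK-like genes 5 rose, to sums of 133 and 216 CPM from 47.0 and 55.9. The 8 T-like genes summed to 1472 and 829 CPM against 651 and 815, and the 8 plasmacytoid dendritic-like genes to 15764 and 16405 against 13769 and 14963, with 0 called in either list. Of the 7 myeloid-like and 7 plasma cell-like genes tested, 1 and 2 fell. The sums of all 8 listed were 103 to 132 against 173 to 214 CPM and 597 to 681 against 877 to 939 CPM. The 6 erythroid-like genes summed to at most 4.13 CPM in these libraries. No marker of any list was at 0 counts in a whole group, and the part of these cells in the results was not tested.

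Across the stages the same lists also moved, where 73.0% of all genes were called at the first step and 58.9% at the second. The 12 proliferation genes rose in all 12 cases from pre-proB to proB, with sums of 1644 and 1829 CPM before and 7586 and 7369 after, and fell in all 12 from proB to preB, to 5394 and 4592 CPM. All 8 plasmacytoid dendritic-like genes fell at the first step, from sums of 13769 and 14963 to 520 and 560 CPM, and all 10 early B-like genes rose, to sums of 6106 and 5818 CPM. At the first step 7 of 8 NK-like and 6 of 8 T-like genes fell and 2 T-like genes rose. Of the 5 erythroid-like genes tested, 4 rose, and the sums of all 6 listed came to 14.6 and 16.7 CPM. Myeloid-like genes gave 3 higher and 2 lower of 8, and plasma cell-like genes 4 higher and 3 lower of 8. From proB to preB, the counts of genes that rose and fell were 1 and 2 for the early B-like list, 0 and 6 for the T-like, 0 and 3 for the NK-like, 0 and 7 for the plasmacytoid dendritic-like, 0 and 6 for the myeloid-like, 1 and 0 for the erythroid-like and 4 and 3 for the plasma cell-like list. The part of these shifts in the end-joining values was not tested.

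Over the 4 groups, the group means of *Rag1* and *Rag2* ranked as those of *Lig4*, *Xrcc6*, *Nhej1* and *Polm* did. *Rag1* stood at 8.00 and 8.46 CPM in Erg-deleted cells, 283 and 120 CPM in their controls, and 660 and 562 CPM (proB) and 1854 and 1916 CPM (preB) at the later stages. *Rag2* stood at 3.25 and 2.71, 43.6 and 18.8, 125 and 119, and 149 and 151 CPM in the same order. Its step from proB to preB was not called (log2 fold change 0.31 ± 0.243, adjusted p = 0.293, edgeR). Both were lower in the Erg-deleted cells, *Rag1* by a log2 fold change of -4.63 ± 0.448 (adjusted p = 0.0178, edgeR) and *Rag2* by -3.40 ± 0.436 (adjusted p = 0.0241, edgeR). The part of the Rag1Cre allele itself in the *Rag1* value cannot be told apart. *Dntt*, the template-independent polymerase that adds bases at joins, was at 294 and 400 CPM against 721 and 453, a log2 fold change of -0.77 ± 0.236 that did not pass (adjusted p = 0.237, edgeR). From proB to preB *Dntt* fell by 2.95 ± 0.320 (adjusted p = 0.000103, edgeR), from 840 and 859 CPM to 72.3 and 147, over the step at which *Polm* rose and *Poll* fell. Of the 5 genes that act in cleavage and joining, *Dntt*, *Rag1*, *Rag2*, *Hmgb1* and *Hmgb2*, 4 rose at the first step, led in p by *Hmgb2* (log2 fold change 2.22), and at the second 1 rose and 3 fell.

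The wider repair lists are given by their counts, to be read against the shares of all genes called (73.0%, 58.9% and 70.7% at the 3 stage comparisons), and the gene named in each is the called gene of lowest p. Of 13 accessory end-joining genes, 5 rose and 5 fell from pre-proB to proB, 4 rose and 4 fell from proB to preB, and 6 rose and 2 fell over both. Among them *Tdp1*, a phosphodiesterase that cleans 3′ ends, rose by 1.60 at the first step, and *Tdp2*, which removes 5′ adducts, rose by 1.30 over both. Of 10 break-sensing genes, 10 rose at the first step, with the lowest p for *H2ax* (1.93), and 7 fell and 2 rose at the second, with the lowest p for *Nbn* (-1.05), a subunit of the complex that senses ends. Over both steps 7 rose and 1 fell, with the lowest p for *H2ax* (1.57). Of 8 alternative end-joining genes, 8 rose at the first step and 5 fell and 2 rose at the second, with the lowest p in both cases for the ligase *Lig1* (2.34 and -0.81), and 7 rose over both, with the lowest p for *Rbbp8* (1.58). Of 15 homologous recombination genes, 12 rose and 1 fell at the first step. At the second step 12 fell and 2 rose, with the lowest p for the nuclease *Exo1* (-0.93), and over both 13 rose and 2 fell. In the comparison of genotypes edgeR called 0 of these 46 genes, where 1.16% of all genes were called, with list medians of -0.14 to -0.03.

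Since *Polm* had the widest range of group means, 4.41 on the log2 CPM scale, the genes nearest to it in pattern were found by the root mean square difference of centred log2 CPM over the 8 libraries. Among the nearest were *Niban3* (0.289), *Gm3227* (0.308), *Ets2* (0.337) and *Cyp39a1* (0.346). *Niban3*, for instance, had 146 and 117 CPM at the Erg fl/fl pre-proB stage, 545 and 514 CPM at proB, 1729 and 1749 CPM at preB, and 121 and 76.1 CPM in Erg-deleted cells. *Gm3227* did not exceed 4.13 CPM in any library, so its pattern rests on few counts.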

How the data were processed

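RNA was sequenced from 4 groups of 2 samples. Per the study's methods, populations were sorted independently from 2 mice of each genotype, so the Erg fl/fl stages may share mice, and how *Xist* and *Ddx3y* came to be in every library was not tested. The deposited file held whole-number read counts per Entrez gene: the authors trimmed 100 bp paired-end reads with Trim Galore, aligned them to mm10 with STAR and counted fragments with featureCounts on the Rsubread annotation. For STAR's version, strand use and multimapping, nothing is given in the sources used here. Symbols came from RefSeq for 25275 of 27179 genes, and the 1904 others held 0.577% of counts. The 10 genes, the gene lists and the tests were chosen with earlier results of these data known.

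Genes reaching 0.5 CPM in 2 or more libraries were tested with edgeR 4.0.16 (R 4.3.3; TMM, quasi-likelihood F test, Benjamini-Hochberg adjustment over all genes), checked on simulated counts. The genotype fit used the 4 pre-proB libraries, and the stage fit the 6 Erg fl/fl libraries. SE is the log2 fold change over the root of F. Library totals had a median of 17006205 counts, and TMM factors of 0.952 to 1.05. Replicates differed beyond counting noise (chi-square per degree of freedom 3.82 to 8.29). P-values rest on the spread within groups of 2 samples, pooled over all groups of a fit and moderated over all genes tested. FPKM is CPM per kb of GENCODE M21 exons. All 10 genes were named in every comparison. From each list, the called gene with the lowest p was named, and for the gene of widest range the 5 nearest in pattern, except that some genes this rule selects are not reported here. Alternatives were another normalization (total counts, DESeq2 1.42.0 size factors), filter, test (DESeq2, limma-voom with limma 3.58.1) or gene length, all libraries in one fit, a replicate block, and leaving out each library.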

Additional observations from a re-analysis of the deposited data

How the results depend on the processing

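Over 620 recomputed fold changes of the 10 genes, 587 kept their direction and side of the threshold, 16 lost a call, 8 gained one and 9 changed sign. The genotype comparison depended most on the settings, from 151 genes called to 279 with no filter, 400 with DESeq2, 41 with limma-voom, 88 with the version 4 quasi-likelihood fit, 442 with all 8 libraries in one fit and 265 with a replicate block. Leaving out 1 library gave 10 to 401, with 401 without Erg fl/fl replicate 2, 16 without Erg-deleted replicate 1 and 10 without its replicate 2. Of the 10 end-joining genes, 0 were called, 1 with no filter, 1 with DESeq2, 2 with all 8 libraries and 0 to 3 when 1 library was left out. *Lig4* passed in 4 of 14 alternatives (adjusted p 0.000572 to 0.284), *Poll* in 2 (0.0161 to 0.446), *Xrcc6* in 1 (0.000371 to 0.493) and *Xrcc5* in 0. From proB to preB, 5 to 8 of the 10 were called when 1 library was left out, 5 without preB replicate 2, and DESeq2 called 6, losing *Prkdc* and *Xrcc4*. Changes of sign were in uncalled values. *Atm* in the genotype comparison gave -0.01 with total counts and -0.09 without Erg-deleted replicate 1. From proB to preB it gave -0.03 with total counts, -0.00 with no filter, -0.01 with at least 1 CPM and -0.06 without preB replicate 1. In the genotype comparison *Polm* gave 0.03 and *Xrcc4* -0.05 without Erg fl/fl replicate 2, and *Xrcc4* -0.07 without Erg-deleted replicate 2. Over the libraries left out, *Polm* ranged from -0.24 to 0.03, *Xrcc4* from -0.07 to 0.17 and *Atm* from -0.09 to 0.14, and *Atm* from proB to preB from -0.06 to 0.09. The cause was not tested. In the stage comparisons, the calls lost were of *Nhej1*, *Prkdc*, *Xrcc4*, *Xrcc6* and *Poll*. Deviations of same-numbered replicates were at most weakly correlated over genes (-0.0353 to 0.150), most for Erg fl/fl pre-proB with proB cells. Such values cannot show whether same-numbered samples came from the same mouse. The replicate block shared 139 of the 151 genotype calls.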
